A study of Mus musculus with 24 samples.

Results

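The probes ST_Mm_050 and ST_Mm_051 are 2 of the 284 mouse probes on a spotted array of genes of drug metabolism, sterol handling and the body clock. They were chosen by their identifiers because their wild type ratio after PCN exceeded 2-fold but stayed below that of the highest probes, so their wild type values are a description and carry no test. ST_Mm_050 is annotated to Cyp3a13. The annotation used here does not list ST_Mm_051, which therefore has no gene name below. Each member had 3 spots on each of 24 arrays.

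Every array set liver RNA of mice given PCN against pooled liver RNA of vehicle-treated mice that shared their genotype. All mice were males of strain C57BL/6J aged 9 to 12 weeks, and PCN was injected into the peritoneum at 40 mg/kg 12 h before death, with 5% DMSO in corn oil as the vehicle. The 4 genotypes were wild type, CAR-deficient (CAR-/-), PXR-deficient (PXR-/-) and CAR/PXR-deficient (CAR/PXR-/-), with 6 arrays each. The deficiencies are carried by the PCN-treated livers and by the vehicle pool alike, and the labels give no tissue restriction, allele or promoter for them. PCN RNA carried the red dye Cy5 and pool RNA the green dye Cy3. A log2 ratio above 0 therefore stands for a higher level after PCN. The dyes were never exchanged. A probe's own dye effect therefore remains in its ratios but drops out when genotypes are subtracted. According to the labels, 6 replicates were pooled as RNA, but the channel is not named. The p-values then measure only the spread between these arrays, which may be technical, and the 6 Cy3 readings of a genotype, for which the labels name the same pool, are not counted as replicates.

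PCN (pregnenolone carbonitrile) is a synthetic steroid and an activator, in rodents, of the pregnane X receptor (PXR, gene Nr1i2). PXR and the constitutive androstane receptor (CAR, gene Nr1i3) are nuclear receptors of the liver that bind DNA as partners of the retinoid X receptor and switch on genes for the uptake, oxidation, conjugation and export of foreign compounds. The Cyp3a genes encode cytochrome P450 enzymes that oxidise many drugs and steroids, and Cyp3a11 is a classic target of PXR in mouse liver. Cyp3a13 is another mouse member of that subfamily. Its transcript shares sequence with those of its relatives, and whether ST_Mm_050 or ST_Mm_051 also bound their transcripts was not tested. In whole liver RNA, fewer cells of a type and less RNA per cell cannot be told apart.

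Receptor response elements are built from hexamers close to AGGTCA or AGTTCA, and the promoter of Cyp3a13 is shown with those of the 2 Cyp3a genes on the array whose ratios were most like it, because the 3 ratios moved together. The sequences are RefSeq's on GRCm38.p6, on the minus strand of chromosome 5, from 250 bases before to 50 bases after the gene start. They lie at chr5:137921570-137921869 for Cyp3a13, chr5:145720087-145720386 for Cyp3a41a and chr5:145879805-145880104 for Cyp3a11. Capitals mark AGGTCA or AGTTCA on either strand.
Cyp3a13: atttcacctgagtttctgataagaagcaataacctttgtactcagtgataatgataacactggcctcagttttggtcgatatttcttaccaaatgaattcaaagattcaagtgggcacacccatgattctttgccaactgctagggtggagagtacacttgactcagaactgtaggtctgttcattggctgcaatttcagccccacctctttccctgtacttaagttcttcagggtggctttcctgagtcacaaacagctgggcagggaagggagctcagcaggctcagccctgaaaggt
Cyp3a41a: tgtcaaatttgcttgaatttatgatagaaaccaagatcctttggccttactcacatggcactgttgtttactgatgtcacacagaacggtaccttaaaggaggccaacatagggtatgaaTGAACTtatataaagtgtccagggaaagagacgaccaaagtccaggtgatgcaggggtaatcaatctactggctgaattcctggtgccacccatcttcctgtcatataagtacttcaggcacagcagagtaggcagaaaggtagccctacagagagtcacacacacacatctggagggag
Cyp3a11: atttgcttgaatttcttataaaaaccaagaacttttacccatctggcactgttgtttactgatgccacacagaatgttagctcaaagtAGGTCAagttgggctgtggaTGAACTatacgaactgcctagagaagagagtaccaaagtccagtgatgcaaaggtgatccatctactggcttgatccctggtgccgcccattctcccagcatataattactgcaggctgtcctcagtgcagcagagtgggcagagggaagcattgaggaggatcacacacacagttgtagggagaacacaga
The Cyp3a13 window held neither hexamer. The Cyp3a41a window held 1, AGTTCA on the minus strand at -130, and the Cyp3a11 window held 2, AGGTCA on the plus strand at -162 and AGTTCA on the minus strand at -142. Positions count from the gene start, and plus means the strand printed. Of 32851 promoters of this length, 27.7% held at least 1 of the hexamers. No window of the 3 held a direct repeat of these hexamers with a spacer of 3 or 4 bases, or an everted repeat with a spacer of 6. In a global alignment 57.4% of the columns were identical between Cyp3a13 and Cyp3a11, 53.2% between Cyp3a13 and Cyp3a41a, and 71.8% between Cyp3a41a and Cyp3a11. These matches describe letters in a short window and say nothing of where a receptor binds.

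The arrays gave both members a strong reading. All 72 spots of each member had more than 50% of their pixels above background by 2 SD in both channels, no spot was saturated, and 1 spot of each was flagged. The Cy5 foreground of the ST_Mm_050 spots ran from 478 to 10148 and the Cy3 foreground from 806 to 4723. The Cy5 foreground of the ST_Mm_051 spots ran from 383 to 8043 and the Cy3 foreground from 450 to 2242. An array showed 158 to 243 mouse probes above background, and the test covered 236. The hepatocyte markers Apoa1 and Cyp2e1 were above background on all 24 arrays, and no other gene of the liver cell marker lists had a named probe.

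In wild type livers Cyp3a13 (ST_Mm_050) read 2.35-fold and ST_Mm_051 3.31-fold higher after PCN. The normalised log2 ratio of ST_Mm_050 was 1.42, 1.21, 1.06, 1.21, 1.07 and 1.41 on replicates 1 to 6, with a mean of 1.23 ± 0.16 (SD, n = 6). The ratio of ST_Mm_051 was 1.94, 1.92, 1.57, 1.69, 1.36 and 1.88, with a mean of 1.73 ± 0.23. All these values lie above 1, which the choice of the members favoured, and the share of probes above that limit on every array was not computed. For a limit of 0 that share was 16.9% of the tested probes. In the values deposited by the authors, ST_Mm_050 ran from 0.68 to 1.28 and ST_Mm_051 from 1.37 to 1.99. The lowest ST_Mm_051 array is also a low one for ST_Mm_050. A total of 5 probes, 2.12% of those tested, reached a wild type mean log2 ratio of 1, where ST_Mm_050 had rank 4 and ST_Mm_051 rank 3. Just inside that limit was ST_Mm_074 (Mbtps1, the site-1 protease that processes sterol-regulated transcription factors) at 1.09 ± 0.24. Just outside it were ST_Mm_296 (Slco1a4, an organic anion uptake carrier) at 0.75 ± 0.49 and ST_Mm_017 (Apoa1, the main protein of high density lipoprotein) at 0.47 ± 0.21.

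**Figure D1:**
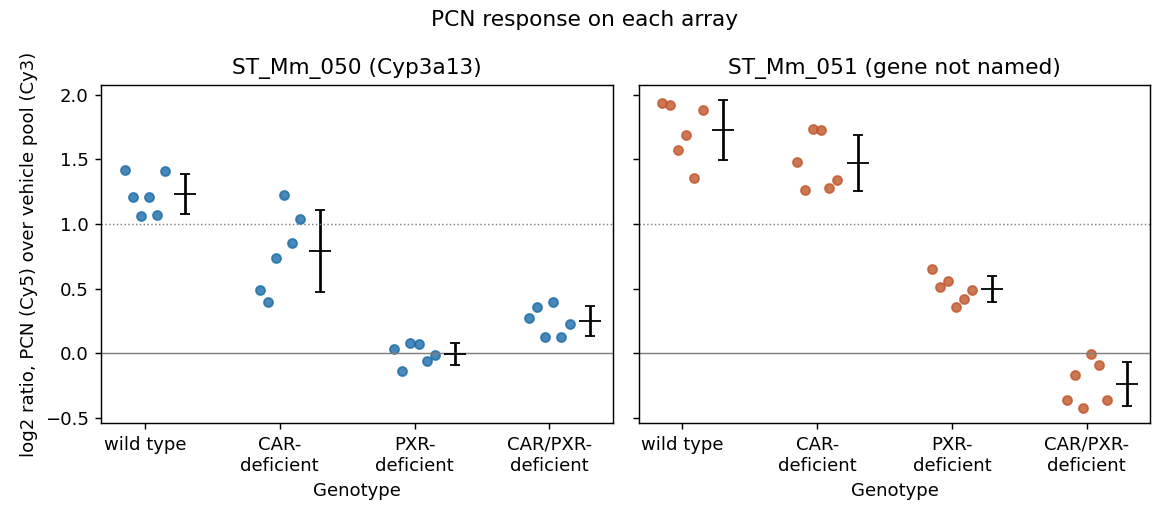
Normalised log2 ratio of PCN-treated RNA over the vehicle pool on each array (points) for ST_Mm_050 (left) and ST_Mm_051 (right), by genotype, with the mean and SD of 6 arrays beside them, a solid line at 0 and a dotted line at 1. ST_Mm_050 lies around 0 in PXR-deficient livers and above 0 in CAR/PXR-deficient livers, while ST_Mm_051 lies above 0 in the former and below 0 in the latter.

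Without CAR both members still rose after PCN. The ratio of ST_Mm_050 was 0.49, 0.40, 0.74, 1.23, 0.85 and 1.04 on CAR-deficient replicates 1 to 6, a mean of 0.79 ± 0.32 (SD, n = 6) or 1.73-fold. The values spread over a wider range than in any other genotype, and the highest, on replicate 4, lies within the wild type range. The ratio of ST_Mm_051 was 1.48, 1.27, 1.74, 1.73, 1.28 and 1.34, a mean of 1.47 ± 0.22 or 2.77-fold. These values overlap those of wild type as well. The rises gave limma adjusted p = 9.40e-09 for ST_Mm_050 and 3.01e-14 for ST_Mm_051. Of all tested probes, 6.78% were called higher and 10.2% lower in this genotype, where ST_Mm_050 again had rank 4 and ST_Mm_051 rank 3. The wild type mean exceeded the CAR-deficient mean by 0.44 at ST_Mm_050 and by 0.26 at ST_Mm_051. These values are given without an interval or a test, because the wild type arrays chose the members and their high ratios.

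Without PXR a rise was called at ST_Mm_051 but not at Cyp3a13. The ratio of ST_Mm_050 was 0.03, -0.14, 0.08, 0.07, -0.06 and -0.01 on PXR-deficient replicates 1 to 6, a mean of -0.01 ± 0.08 (SD, n = 6). The values lie on either side of 0, and the 95% interval of the mean ran from -0.16 to 0.15 (limma adjusted p = 0.954). The sign of this mean turned under 10 of the 40 other settings, with values up to 0.28 and no adjusted p under 0.181. The ratio of ST_Mm_051 was 0.65, 0.51, 0.56, 0.36, 0.42 and 0.49, a mean of 0.50 ± 0.10 or 1.41-fold. All 6 arrays lie above 0, as at 16.5% of the probes (limma adjusted p = 1.71e-05 for the mean against 0), and below every CAR-deficient array. ST_Mm_051 had rank 4 of 236 in this genotype, where 19.5% of the probes were called higher and 19.5% lower, so a call by itself is common there. The rise at ST_Mm_051 was called under all 40 other settings, with means from 0.47 to 0.70.

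Without both receptors the members read in opposite directions, by small amounts that several settings did not call. The ratio of ST_Mm_050 was 0.27, 0.36, 0.12, 0.39, 0.13 and 0.22 on CAR/PXR-deficient replicates 1 to 6, a mean of 0.25 ± 0.11 (SD, n = 6) or 1.19-fold (limma adjusted p = 0.0162). All 6 lie above 0, as at 24.2% of the probes, and above every PXR-deficient array. The ratio of ST_Mm_051 was -0.37, -0.17, -0.42, -0.01, -0.09 and -0.37, a mean of -0.24 ± 0.17 or 0.848-fold (limma adjusted p = 0.0190). All 6 lie below 0, as at 15.7% of the probes, with replicate 4 close to 0. In this genotype 10.6% of the probes were called higher and 11.9% lower. The call was kept under 34 of 40 other settings at ST_Mm_050 and 32 of 40 at ST_Mm_051. The call at ST_Mm_050 was lost without CAR/PXR-deficient replicate 2 (0.23, adjusted p = 0.0513) or replicate 4 (0.22, adjusted p = 0.0652). The call at ST_Mm_051 was lost without replicate 1 (-0.21, adjusted p = 0.0696), replicate 3 (-0.20, 0.0819) or replicate 6 (-0.21, 0.0808).

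The direction in the CAR/PXR-deficient livers rests on the labelled dyes. Over the 236 probes the mean ratios of this genotype correlated with those of CAR-deficient livers at r = -0.48, of PXR-deficient livers at r = -0.55 and of wild type livers at r = -0.15. Wild type and CAR-deficient ratios correlated at 0.82. The r values include ST_Mm_277, ST_Mm_279 and ST_Mm_280, whose CAR/PXR-deficient means of 6.03, 5.94 and 5.19 lie far from 0. Their means were -1.35, -1.27 and -1.77 in CAR-deficient and -0.79, -0.84 and -1.20 in PXR-deficient livers. Such probes can weigh heavily on an r, and the r values without them were not tested. The labels state the same dyes on all arrays, and the labelled direction is kept here. With the sign of the 6 CAR/PXR-deficient arrays turned, the means would be -0.25 at ST_Mm_050 and 0.24 at ST_Mm_051. The ratio differences from this genotype below are also given with the sign turned, as values without a test. A probe's own dye effect would not drop out of those turned differences, since turning the sign turns that effect as well.

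The differences among the deficient genotypes were tested directly. At ST_Mm_050 the CAR-deficient ratio exceeded the PXR-deficient ratio by 0.80 ± 0.11 (SE; limma adjusted p = 4.56e-06) and the CAR/PXR-deficient ratio by 0.54 ± 0.11 (adjusted p = 0.000418). At ST_Mm_051 it exceeded them by 0.97 ± 0.11 (adjusted p = 1.39e-07) and by 1.71 ± 0.11 (adjusted p = 1.15e-12). Every CAR-deficient array was above every PXR-deficient and every CAR/PXR-deficient array at both members. Calls in that direction were made at 18.2% of the probes against PXR-deficient and 11% against CAR/PXR-deficient livers, and 6.78% and 6.36% of the probes had no overlap. With the sign of the CAR/PXR-deficient arrays turned, the CAR-deficient minus CAR/PXR-deficient difference would be 1.04 at ST_Mm_050 and 1.23 at ST_Mm_051. The differences at ST_Mm_050 lost their calls when ratios were centred on the control probes instead of by loess (0.45, adjusted p = 0.117, and 0.43, adjusted p = 0.221). With PXR-deficient replicate 2 also left out, the call against PXR-deficient livers was kept. The call against CAR/PXR-deficient livers was not (0.43, adjusted p = 0.0606). The differences at ST_Mm_051 kept their calls under all 40 other settings.

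The PXR-deficient and CAR/PXR-deficient livers differed at ST_Mm_051, by 0.74 ± 0.11 (SE; limma adjusted p = 3.68e-06), with every PXR-deficient array above every CAR/PXR-deficient array. At ST_Mm_050 the order was the other way round, with no overlap either, and the difference of -0.25 ± 0.11 missed the threshold (adjusted p = 0.0580, 95% interval -0.48 to -0.03). Its adjusted p ran from 0.0273 to 0.909 over the other settings, and passed without CAR-deficient replicate 1 (0.0448), replicate 2 (0.0376) or replicate 4 (0.0319). With the sign of the CAR/PXR-deficient arrays turned, PXR-deficient livers would be the higher at both members, by 0.24 at ST_Mm_050 and 0.26 at ST_Mm_051. Between these genotypes 17.4% of the probes were called higher and 24.2% lower in PXR-deficient livers, at 12.3% every PXR-deficient array was above every CAR/PXR-deficient array, and at 17.8% every one was below. The wild type mean, given without a test, exceeded the PXR-deficient mean by 1.24 at ST_Mm_050 and 1.23 at ST_Mm_051, and the CAR/PXR-deficient mean by 0.98 and 1.96, or by 1.48 and 1.49 with the sign turned. All wild type arrays were above all arrays of these genotypes at both members, which the choice by the wild type ratio favoured. The shares of 12.3% and 6.36% over all tested probes, most of them not chosen so, are therefore no measure for the members.

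With the labelled direction, the order of the genotypes was the same in its upper part and differed in its lower part. From high to low, the means at ST_Mm_050 ran wild type, CAR-deficient, CAR/PXR-deficient and PXR-deficient. At ST_Mm_051 they ran wild type, CAR-deficient, PXR-deficient and CAR/PXR-deficient, and with the sign of the CAR/PXR-deficient arrays turned ST_Mm_050 would have this order too. The neighbours wild type and CAR-deficient overlapped at both members, and the lower neighbours at ST_Mm_050 differed without passing the threshold.

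The members were also set against each other on the same array. The log2 ratio of ST_Mm_051 minus that of ST_Mm_050 was 0.50 ± 0.13 (SD, n = 6) for wild type, 0.68 ± 0.31 for CAR-deficient, 0.50 ± 0.13 for PXR-deficient and -0.49 ± 0.15 for CAR/PXR-deficient livers. It was above 0 on all 18 arrays of the first 3 genotypes and, with the labelled direction, below 0 on all 6 of the last. With the sign of those 6 arrays turned, it would be 0.49 there, and which direction holds was not tested. These ratios are set side by side without a test, since a dye effect of each probe would enter them. In CAR-deficient livers replicates 1 to 3 gave 0.99, 0.87 and 0.9996, and replicates 4 to 6 gave 0.50, 0.43 and 0.30. The quality weights that limma estimates for those arrays, in which a low weight marks an array far from its group, were 0.27, 0.63 and 0.73 on the first of these sets of arrays, and 1.58, 1.09 and 1.74 on the other. The part of array quality in that split was not tested.

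**Figure D2:**
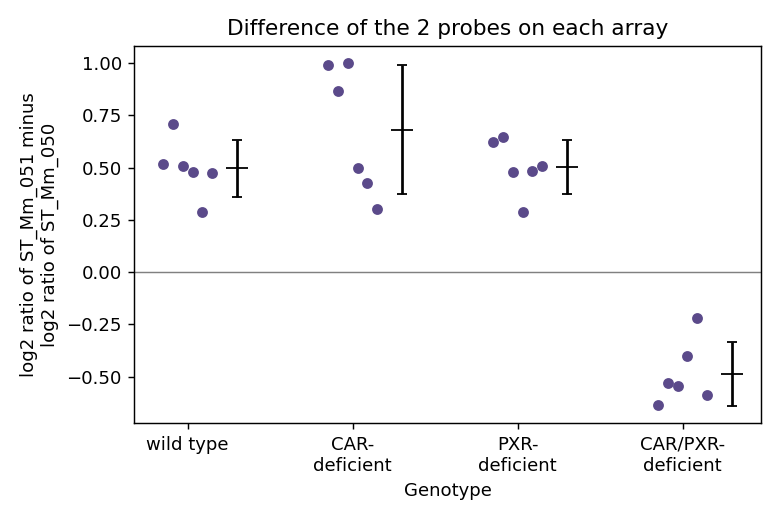
Normalised log2 ratio of ST_Mm_051 minus that of ST_Mm_050 on each array (points), by genotype, with the mean and SD of 6 arrays beside them and a line at 0. The means of wild type (0.50), CAR-deficient (0.68) and PXR-deficient livers (0.50) lie above 0, and that of CAR/PXR-deficient livers (-0.49) lies below in the labelled direction, or at 0.49 with the sign turned.

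The spots of a member lay further apart in wild type and CAR-deficient livers than in the other genotypes. The spot SD over all probes was not compared, and whether the spread belongs to the members or to the arrays was not tested. The SD of the 3 spots of ST_Mm_050 on an array had a median of 0.15 for wild type, 0.26 for CAR-deficient, 0.07 for PXR-deficient and 0.04 for CAR/PXR-deficient livers. For ST_Mm_051 the medians were 0.35, 0.21, 0.11 and 0.03. The largest value of each member, 0.64 at ST_Mm_050 and 0.62 at ST_Mm_051, was on wild type replicate 2, which had a quality weight of 0.42. The spots of ST_Mm_050 lie in print blocks 1, 3 and 5 and those of ST_Mm_051 in blocks 2, 4 and 6, at the same row and column. In wild type the mean ratio of ST_Mm_050 was 1.07 in block 1, 1.21 in block 3 and 1.41 in block 5. That of ST_Mm_051 was 1.58 in block 2, 1.77 in block 4 and 1.83 in block 6. In PXR-deficient livers the ST_Mm_051 means of those blocks were 0.47, 0.51 and 0.51. With the median of each print block removed, the wild type means were 1.23 and 1.72, within 0.01 of the values above.

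Levels in the separate channels put numbers on the vehicle pool and on the PCN-treated RNA, on a log2 intensity scale after loess and Aquantile scaling between arrays. For ST_Mm_050 the Cy3 level of the vehicle pool was 10.62 ± 0.11 (SD, n = 6 readings) for wild type, 10.66 ± 0.21 for CAR-deficient, 11.53 ± 0.25 for PXR-deficient and 11.44 ± 0.09 for CAR/PXR-deficient livers. Its Cy5 level after PCN was 11.85 ± 0.26, 11.45 ± 0.38, 11.52 ± 0.19 and 11.69 ± 0.13. On this scale the pools of the genotypes that lack PXR read higher for Cyp3a13, and the PCN-treated levels lie closer together.

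For ST_Mm_051 the Cy3 level was 9.71 ± 0.13 for wild type, 9.95 ± 0.20 for CAR-deficient, 10.28 ± 0.23 for PXR-deficient and 10.66 ± 0.12 for CAR/PXR-deficient livers. The Cy5 level was 11.44 ± 0.34, 11.42 ± 0.35, 10.77 ± 0.29 and 10.42 ± 0.26. On this scale the pool level is lowest in wild type, while with loess alone it is 10.04 there and 10.00 in PXR-deficient livers, and the PCN-treated level is lowest in CAR/PXR-deficient livers.

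How a difference between genotypes divides between the channels depends on the scaling between arrays, while the ratio does not. With Aquantile, the wild type minus PXR-deficient difference at ST_Mm_050 was -0.91 in Cy3 and 0.33 in Cy5. With loess alone it was 0.04 in Cy3 and 1.28 in Cy5. At ST_Mm_051 it was -0.56 in Cy3 and 0.66 in Cy5 with Aquantile, and 0.04 and 1.27 with loess alone. Against wild type, the higher Cy3 level of the PXR-deficient pool is therefore a statement on the Aquantile scale. The wild type minus CAR/PXR-deficient Cy3 difference at ST_Mm_050 was -0.82 with Aquantile and -0.09 with loess alone. Against the CAR-deficient pool the direction at ST_Mm_050 was kept. CAR-deficient minus PXR-deficient was -0.87 with Aquantile and -0.38 with loess alone, and CAR-deficient minus CAR/PXR-deficient was -0.78 and -0.51. The Cy3 difference between wild type and CAR/PXR-deficient livers at ST_Mm_051 kept its direction, at -0.94 with Aquantile and -0.56 with loess alone. The labels name the same pool on all 6 arrays of a genotype, and on that reading a difference between pools has no replicate check.

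**Figure D3:**
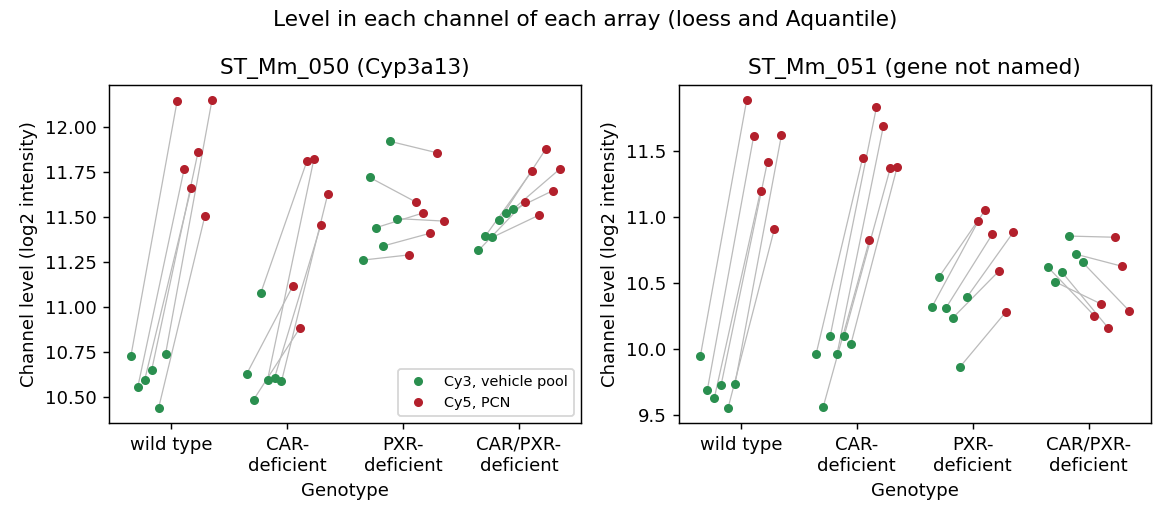
Level of the vehicle pool (Cy3, green) and of PCN-treated RNA (Cy5, red) on each array in log2 intensity after loess and Aquantile, for ST_Mm_050 (left) and ST_Mm_051 (right), with a grey line joining the channels of an array. The lines are steep in wild type and CAR-deficient livers, near flat at ST_Mm_050 in PXR-deficient livers, and run downward at ST_Mm_051 in CAR/PXR-deficient livers.

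The ratios of the members correlated with each other at Pearson r = 0.81 over the 24 arrays, 0.66 over the 18 arrays of the deficient genotypes and 0.46 after each genotype's mean was removed. These points share arrays, dyes and normalisation and are given as a description. The probe most like ST_Mm_050 was ST_Mm_052 (Cyp3a41a), at r = 0.93 over 24 arrays, 0.86 over 18 and 0.79 after removal of the genotype means. ST_Mm_049 (Cyp3a11) followed at 0.90, 0.81 and 0.71, and ST_Mm_074 (Mbtps1) at 0.88, 0.78 and 0.28. The probe most like ST_Mm_051 was ST_Mm_049 (Cyp3a11), at 0.95, 0.92 and 0.28, followed by ST_Mm_052 (Cyp3a41a) at 0.93, 0.91 and 0.21 and ST_Mm_074 (Mbtps1) at 0.86, 0.78 and 0.06. The median r over all tested probes was -0.05 for ST_Mm_050 and -0.02 for ST_Mm_051. With the genotype means removed, the Cyp3a r values of ST_Mm_050 were above those of ST_Mm_051, a difference that was not tested.

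The Cyp3a neighbours had larger ratios than the members in wild type livers. The mean log2 ratio of Cyp3a11 was 2.94 for wild type, 2.23 for CAR-deficient, 0.30 for PXR-deficient and -0.37 for CAR/PXR-deficient livers, and that of Cyp3a41a was 2.85, 1.94, 0.16 and -0.24. Cyp3a11 did not pass the threshold in the last pair of genotypes (limma adjusted p = 0.0964 and 0.0596). With the labelled direction, the means of Cyp3a11, Cyp3a41a and ST_Mm_051 were lowest in CAR/PXR-deficient livers and that of ST_Mm_050 in PXR-deficient livers. With the sign of the CAR/PXR-deficient arrays turned, the lowest means of Cyp3a11 and Cyp3a41a would be those of PXR-deficient livers (beside 0.37 and 0.24 in CAR/PXR-deficient livers), and ST_Mm_050 and ST_Mm_051 would be lowest in CAR/PXR-deficient livers.

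Other genes known as targets of PXR or CAR were read from a list of 13, of which 5 had a tested probe. In wild type 3 of the 5 were called higher and none lower, beside 21.2% and 16.5% of all probes. They were Cyp3a11, the carrier Slco1a4 at 0.75 and Alas1, the first enzyme of haem synthesis, at 0.36. In CAR-deficient livers 2 were higher, Cyp3a11 at 2.23 and Alas1 at 0.42, and none lower, beside 6.78% and 10.2% of all probes. In PXR-deficient livers 1 was higher, the export pump Abcc2 at 0.40, and none lower, beside 19.5% and 19.5% of all probes. In CAR/PXR-deficient livers none was higher and 2 were lower in the labelled direction, beside 10.6% and 11.9% of all probes. The 2 were Abcc2 at -0.34 and Abcc3, another export pump, at -0.39. The list's median log2 ratio was 0.36, 0.32, 0.11 and -0.34 in the order of genotypes above, beside -0.00, -0.01, -0.03 and 0.04 over all tested probes.

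The receptor probes were dim and gave no check of the genotypes. Their levels are given on the Aquantile scale only, and levels with loess alone were not compared. The Cy3 level of ST_Mm_100 (Nr1i2, the gene of PXR) was 7.49 for wild type, 7.57 for CAR-deficient, 7.83 for PXR-deficient and 8.20 for CAR/PXR-deficient livers. On this scale it was not lower where PXR is labelled deficient. The Cy3 level of ST_Mm_101 (Nr1i3, the gene of CAR) was 7.94, 7.59, 7.83 and 7.69, lower on average where CAR is labelled deficient. Its single readings ran from 7.74 to 8.08, 7.37 to 7.73, 7.60 to 7.97 and 7.40 to 7.83 in the same order. The PXR-deficient readings thus overlapped those of both genotypes that lack CAR. Where these probes lie relative to the deleted parts is not given in the sources used here, and a probe outside the deleted part checks nothing. The genotypes therefore follow the labels.

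**Figure D4:**
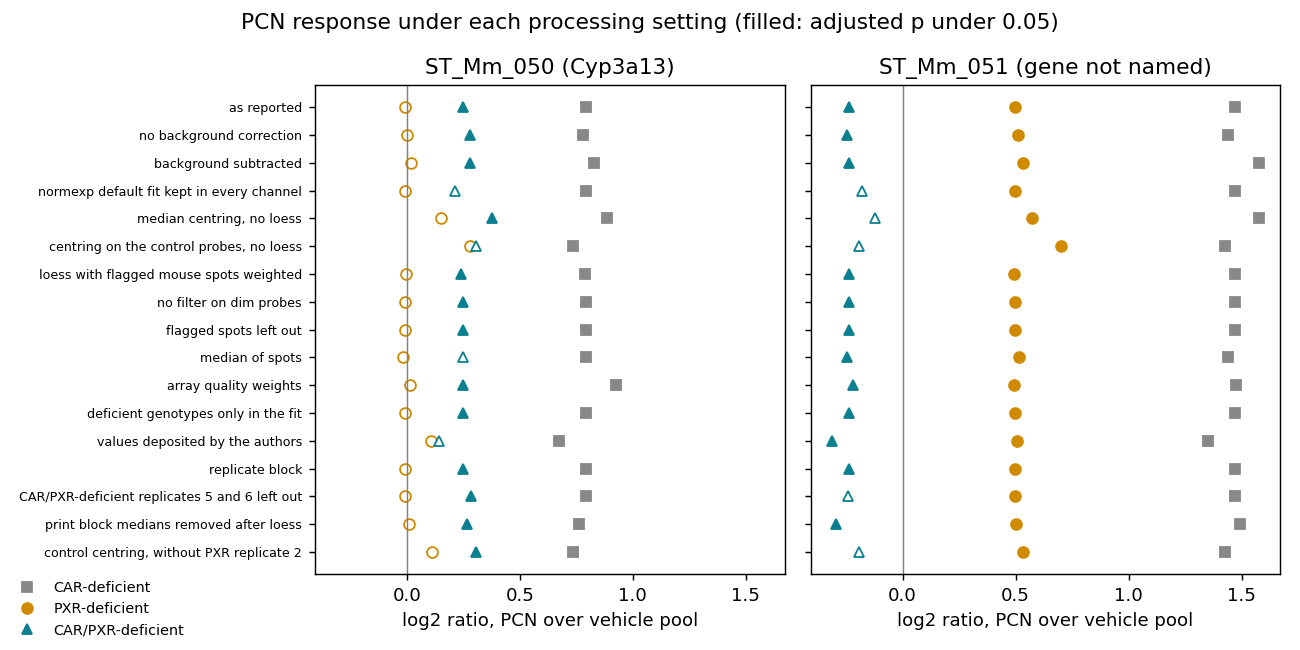
Mean log2 ratio after PCN in the 3 deficient genotypes under each way of processing the arrays (rows), for ST_Mm_050 (left) and ST_Mm_051 (right), where a filled symbol has a limma adjusted p under 0.05. The CAR-deficient rise of both members and the PXR-deficient rise of ST_Mm_051 are filled in every row, while the CAR/PXR-deficient values are open in several rows.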

How the data were processed

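The files held one scanner table for each of 24 arrays and the values deposited by the authors for the same arrays. Per the file headers, each deposited table gives the foreground and background intensity of every spot in both channels, the percent of pixels above background by 2 SD and the percent of saturated pixels. Per the file headers no normalization was applied to the intensity values, and nothing in the sources used here names scanner or slide. The authors' deposited value table holds log2 ratios. Against the loess ratios its columns gave r from 0.767 to 0.996 and slopes from 0.761 to 1.09, which gives the log2 scale and the Cy5 over Cy3 direction, and column medians ran from -0.369 to 0.169, so how the columns were centred stays unknown.

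Foreground medians were corrected with normexp (offset 50) and normalized by global loess (span 0.3) in limma 3.58.1 under R 4.3.3. On CAR/PXR-deficient replicate 6 the default fit put the Cy5 background at 3230, above the median signal of 436.5, and this channel was refitted by maximum likelihood. The spots of a probe were averaged. Probes bright on at least 50% of the arrays of a genotype were tested (236 of 284). One limma fit over all arrays had a coefficient per genotype. P-values were adjusted by Benjamini-Hochberg across these 236 probes. Every adjusted p comes from this fit, or, where a left-out array or another setting is named, from the same model refitted under it. Gene names come from the platform annotation, which names 147 mouse probes, all with the current RefSeq symbol, and does not list 137. Promoters were searched and aligned with Biopython 1.88. The members and gene lists were chosen with earlier results of these data known. Probes named as alike are the 3 of highest Pearson r with each member, and those near the limit are the 2 nearest to a wild type log2 ratio of 1 on each side. Samples with the same replicate number were checked for pairing: their deviations correlated at r = -0.52 to 0.29 over 36 pairs, of which 8 exceeded 0.1. Arrays of unlike number were not compared, so these values cannot show that pairing is absent. The fit treated the arrays as unpaired. The number of arrays limits the precision.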

Additional observations from a re-analysis of the deposited data

Results flagged for a closer look

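Within a genotype, 2 of 24 groups of 6 readings had a value far from the others, where chance gives about 1 in 20. They were the Cy3 level of ST_Mm_050 on CAR-deficient replicate 3, at 11.07, and the Cy3 level of ST_Mm_051 on CAR-deficient replicate 2, at 9.56, both readings of what the labels name as the same vehicle pool. No log2 ratio of either member was set apart in this way.

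The response to PCN differed between deficient genotypes by a direct test (limma, adjusted p as in the report). At ST_Mm_050 the CAR-deficient response exceeded the PXR-deficient one by 0.80 and the CAR/PXR-deficient one by 0.54. At ST_Mm_051 it exceeded them by 0.97 and 1.71, and the PXR-deficient response exceeded the CAR/PXR-deficient one by 0.74. At ST_Mm_051 all 6 wild type arrays were above 0 and all 6 CAR/PXR-deficient arrays below 0. That difference of 1.96 was not tested, because the wild type arrays chose the probe, and its direction in CAR/PXR-deficient livers rests on the labelled dyes.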

How the results depend on the processing

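Each mean and each difference was recomputed under up to 40 other settings. Of 480 tested comparisons 448 kept their direction and their side of the threshold, and of 328 described values 313 kept theirs; the cause of the other changes was not tested. The near-zero mean of ST_Mm_050 in PXR-deficient livers turned positive without background correction (0.0025), with subtraction (0.0166), array weights (0.0134), print block medians removed (0.0088), median centring (0.153), control-probe centring (0.282, or 0.112 without PXR-deficient replicate 2) and the authors' deposited values (0.108), and ran from -0.023 to 0.021 over the arrays left out. Its CAR/PXR-deficient rise missed the threshold with the default normexp fit (0.21), control centring (0.31), the median of spots (0.25) and the deposited values (0.14), and ran from 0.22 to 0.27 over the arrays left out. The CAR/PXR-deficient fall of ST_Mm_051 missed it with the default normexp fit (-0.18), median centring (-0.12), control centring (-0.19, with or without PXR-deficient replicate 2) and replicates 5 and 6 left out (-0.24), and ran from -0.28 to -0.20. Control centring, which moved the median of all probes by -0.21 (wild type), -0.16 (CAR-deficient), 0.099 (PXR-deficient) and -0.15 (CAR/PXR-deficient), also ended the calls of ST_Mm_050 between CAR-deficient and PXR-deficient (0.45) and CAR/PXR-deficient livers (0.43, also without PXR-deficient replicate 2). The PXR-deficient minus CAR/PXR-deficient difference of ST_Mm_050 passed without background correction (-0.28) and with array weights (-0.24), and ran from -0.28 to -0.23 over the arrays left out.

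Among described values, ST_Mm_050 in wild type was 0.99 in the deposited values, where ST_Mm_051 exceeded it by 0.67. Its difference from PXR-deficient livers was 0.81 with control centring, 0.98 with PXR-deficient replicate 2 left out as well, and 0.88 in the deposited values, and that from CAR/PXR-deficient livers was 0.78 with control centring, with or without that replicate. For ST_Mm_051 the wild type minus PXR-deficient difference was 0.92 with control centring. With loess only, the levels of ST_Mm_050 were 12.35, 11.07 and 11.46 in Cy5 and 11.12, 11.08 and 11.21 in Cy3 in wild type, PXR-deficient and CAR/PXR-deficient livers, and the Cy3 level of ST_Mm_051 was 10.04 in wild type and 10.00 in PXR-deficient livers. The replicate number as a block changed no call of the members, with CAR/PXR-deficient means of 0.25 (adjusted p = 0.0151) and -0.24 (adjusted p = 0.0307). Counts of called probes moved more: in wild type from 50 higher to between 8 and 60, in PXR-deficient livers from 46 lower to between 4 and 53, in CAR-deficient livers from 24 lower to between 15 and 67. Slide and scan as blocks were not run, since the headers used here give neither. Removing print block medians and control centring without PXR-deficient replicate 2 were chosen after seeing the data.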
